A study of Mus musculus with 2 samples.

Results

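The 37 genes of the mouse mitochondrial genome were taken as every gene annotated on chromosome M, and all of them carry a symbol that begins with mt-. They comprise 13 messenger RNAs (mRNAs), 2 ribosomal RNAs (rRNAs) and 22 transfer RNAs (tRNAs), out of 43346 genes with an Ensembl identifier in the tables. Each gene had a single transcript. The choice rests on genome position alone and used no measured value. RNA came from limbs of B6NCrl mouse embryos collected at embryonic day 10.5, a stage at which the limb is a bud of mesenchyme under a thin ectoderm. The series has 1 group of 2 biological replicates, and each is a pool of male and female tissue: 69 embryos for replicate 1 and 51 embryos for replicate 2. No treatment, allele or transgene is named, and both pools carry the same donor entry. The assay was RNA sequencing of molecules over 200 nt from 10 ng of total RNA per library, with spike-in RNAs added.

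Mitochondrial DNA is a small circle that is transcribed from both strands into long precursors. Enzymes cut the tRNAs out of these precursors, and the cuts release the mRNAs and rRNAs that lie between them. The mRNAs encode core subunits of respiratory complexes I, III and IV and of ATP synthase (complex V), while the rRNAs and tRNAs serve the translation machinery inside the organelle. All other subunits of these complexes, and the proteins that copy, transcribe and process mitochondrial nucleic acids, come from nuclear genes.

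Expected counts on Ensembl genes summed to 38932257 in replicate 1 and 42465764 in replicate 2, with 3.89% and 3.45% of all counts on the spike-ins. The limb label was checked against markers. All 8 limb mesenchyme markers were at 1 TPM or more in both libraries, from 27.6 to 307 TPM on average. All 4 neural tube markers were below 1 TPM, liver markers reached 1.25 TPM and heart muscle markers 6.22 TPM. The 4 primitive erythroid markers summed to 11670 TPM in replicate 1 and 9504 in replicate 2, and all 4 were lower in replicate 2 beyond counting error after scaling. The 4 ectoderm markers were also all lower in replicate 2, while 5 of the 8 mesenchyme markers were higher and 3 lower. Among these, the hindlimb genes Tbx4 and Pitx1 were at 0.94 and 0.79 on the log2 scale (replicate 2 minus replicate 1), and the forelimb gene Tbx5 was at -0.26. Of the 4 endothelium markers, 2 were lower and 0 higher. Of 2 heart muscle and 2 macrophage markers that averaged at least 100 counts, 1 each was higher and 0 lower. These calls used the TMM scaling described below. With scaling to the spike-in RNAs, 4 endothelium, 7 mesenchyme, 2 heart muscle and 1 macrophage markers were higher and 0 lower. All 4 erythroid and 3 ectoderm markers were lower and 0 higher under it. Over all genes that averaged at least 100 counts, 30.4% were higher and 32.7% lower, and with spike-in scaling 72.3% and 6.54%. The part of these marker differences in the mitochondrial values was not tested. In bulk tissue, fewer cells of a type, fewer mitochondria per cell and less RNA per mitochondrion cannot be told apart.

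The genes lie closely packed. On mm10, 28 are annotated on the plus strand of chromosome M and 9 on the minus strand. The minus strand genes are 8 tRNAs and mt-Nd6, the only mRNA among them. Of the 14 neighbouring pairs of long genes (mRNAs and rRNAs), 10 have at least 1 tRNA between them and 4 have none. In those 4 pairs the genes overlap: mt-Atp8 and mt-Atp6 by 43 nt, mt-Nd4l and mt-Nd4 by 7 nt, mt-Atp6 and mt-Co3 by 1 nt, and mt-Nd5 and mt-Nd6 by 14 nt on opposite strands. The same-strand overlaps of more than 1 base are printed to show how the reading frames share bases. Both are shorter than the 100 nt span of a read position in these tables, so no such position fits inside them. The stretch chrM:7917-7979 on the plus strand carries the end of mt-Atp8 and the start of mt-Atp6, with the 43 shared bases in capitals (sequences are from the GENCODE M21 transcripts on GRCm38, the assembly also called mm10):

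mt-Atp8 end: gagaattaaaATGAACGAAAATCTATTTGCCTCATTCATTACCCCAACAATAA

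mt-Atp6 start: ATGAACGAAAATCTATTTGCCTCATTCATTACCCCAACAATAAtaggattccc

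The stretch chrM:10157-10183 on the plus strand holds the end of mt-Nd4l and the start of mt-Nd4, whose 7 shared bases are again in capitals:

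mt-Nd4l end: acctactacaATGCTAA

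mt-Nd4 start: ATGCTAAaaattattct

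Another feature of mitochondrial mRNAs is an unfinished stop codon. Of the 13 annotated mRNAs, 10 end in a full TAA or TAG and 3 end in a lone T, which the poly(A) tail is known to complete. The last 15 bases of these 3 are shown with the T in capitals (chrM:9376-9390, chrM:11530-11544 and chrM:15274-15288, all plus strand):

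mt-Co3: attgatgaggatctT

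mt-Nd4: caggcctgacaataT

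mt-Cytb: taaaattatatccaT

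At the other end, 9 mRNAs begin with ATG and 1 each with GTG (mt-Nd1), ATA (mt-Nd2), ATT (mt-Nd3) and ATC (mt-Nd5).

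No tRNA was measurable. All 22 tRNAs had an expected count of 0 in both libraries and are 59 to 75 nt long, under both the 200 nt selection of the RNA and the 100 nt below which the tables give an effective length of 0. Effective length, the number of positions a read can start from, equalled the length minus 99 nt for each of the 15 long mitochondrial genes. None of the 2218 Ensembl genes shorter than 100 nt had a count, so the zeros of the tRNAs carry no information on their abundance. The shortest is mt-Ts2, a serine tRNA at chrM:11613-11671, and the longest is mt-Tl1, a leucine tRNA at chrM:2676-2750, both on the plus strand:

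mt-Ts2: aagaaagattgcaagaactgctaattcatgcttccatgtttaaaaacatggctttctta

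mt-Tl1: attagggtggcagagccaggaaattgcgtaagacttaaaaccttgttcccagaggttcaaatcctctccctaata

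The 15 long genes were all detected. The mRNAs took 0.731% of gene counts in replicate 1 (exact binomial 95% interval 0.729 to 0.734%) and 0.821% in replicate 2 (0.818 to 0.824%). The rRNAs took 0.161% (0.160 to 0.162%) and 0.176% (0.174 to 0.177%). The intervals do not overlap between the libraries, and they cover counting error only. Whether ribosomal RNA was removed before library making is not given in the sources used here, so the rRNA values describe the libraries.

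Levels are given in TPM, an abundance that corrects for length and has a fixed sum per library, so that genes can be compared. The median of the 13 mRNAs was 572 TPM in replicate 1 and 875 in replicate 2. It fell on mt-Nd4 in replicate 1 and on mt-Co3 in replicate 2, so these medians do not give the change of a single gene. The listed level of mt-Co3 has a wide interval, given below. For comparison, the 11853 protein-coding genes at 1 TPM or more in both libraries had medians of 19.9 and 22.4. The mitochondrial mRNAs spanned 67.9-fold in replicate 1 and 66.6-fold in replicate 2 from the lowest, mt-Nd4l, to the highest, mt-Atp6. When the counts of the nuclear copies described below are pooled with the genes they copy, the span is 21.1-fold and 22.5-fold, with mt-Co3 highest and mt-Nd5 (replicate 1) or mt-Nd6 (replicate 2) lowest. Every value below is for replicate 1 and then replicate 2.

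The ATP synthase mRNAs stood at the top. mt-Atp6, which encodes the membrane subunit that forms the proton path, was at 4574 and 5136 TPM (4855 ± 397, SD, n = 2). mt-Atp8, which encodes a small partner subunit, was at 3336 and 3774 TPM (3555 ± 309). They ranked 6 and 12 among all Ensembl genes by mean TPM. Their log2 ratio, mt-Atp6 over mt-Atp8, was 0.46 and 0.44. The posterior intervals that the tables give for TPM overlap for this pair, at 3078 to 4606 against 3201 to 3333 in replicate 1. The mt-Atp8 gene has only 105 possible read positions, so its TPM depends strongly on the effective length.

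mt-Cytb, which encodes cytochrome b, the sole mitochondrial subunit of complex III, was at 1549 and 1820 TPM (1685 ± 192). Cytochrome c oxidase, complex IV, has its 3 core subunits from mt-Co1, mt-Co2 and mt-Co3. mt-Co1, the subunit that holds the site of oxygen reduction, was at 1217 and 1560 TPM. mt-Co2, which receives electrons from cytochrome c, was at 913 and 1222 TPM. mt-Co3 was listed at 557 and 875 TPM, the lowest of the 3 in both libraries. The mt-Co2 and mt-Co3 values have wide intervals, which are taken up with the nuclear copies.

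The 7 mRNAs of complex I, the NADH dehydrogenase, covered most of the range. mt-Nd1 was at 1981 and 2084 TPM (2033 ± 73.4) and lay above every other complex I mRNA. mt-Nd4 followed at 572 and 663 TPM, and mt-Nd2 at 365 and 397. mt-Nd5 was at 248 and 292 TPM, mt-Nd6 at 252 and 277, and mt-Nd3 at 216 and 204. mt-Nd4l was listed lowest of the long genes at 67.4 and 77.2 TPM, but with its copy pooled it lay above mt-Nd5 and mt-Nd6. All 7 encode subunits of the membrane arm of the complex.

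The rRNAs are cut from the same precursor, with mt-Rnr1 (12S, of the small ribosomal subunit) ahead of mt-Rnr2 (16S, of the large subunit). mt-Rnr1 was at 372 and 407 TPM and mt-Rnr2 at 1372 and 1577. mt-Rnr2 was thus 3.69-fold and 3.87-fold above mt-Rnr1, a log2 ratio of 1.92 ± 0.05. Both lay within the range of the mRNAs, with mt-Rnr1 next to mt-Nd2 and mt-Rnr2 next to mt-Co1.

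mt-Nd6 is the mRNA of the other strand. Its log2 ratio to the median of the 12 plus strand mRNAs was -1.56 and -1.92, a level 0.339 and 0.264 times that median. That median lay between mt-Nd4 and mt-Co2 in replicate 1 and between mt-Co3 and mt-Co2 in replicate 2. The mean log2 ratio of -1.74 was -2.41 with posterior mean TPM and -2.75 with the nuclear copies pooled. Its 14 nt overlap partner mt-Nd5 was at nearly the same level, with a log2 ratio of mt-Nd5 to mt-Nd6 of -0.03 and 0.08. Whether counting used strand is not given in the sources used here. Reads from the opposite strand of a gene therefore cannot be told apart from its own.

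Ordered by mean TPM, the 15 genes ran from mt-Atp6 through mt-Atp8, mt-Nd1, mt-Cytb, mt-Rnr2, mt-Co1, mt-Co2, mt-Co3, mt-Nd4, mt-Rnr1, mt-Nd2, mt-Nd5, mt-Nd6 and mt-Nd3 to mt-Nd4l. Of the 14 neighbouring pairs in that order, 5 had intervals apart in the same direction in both libraries: mt-Atp8 over mt-Nd1, mt-Nd1 over mt-Cytb, mt-Cytb over mt-Rnr2, mt-Nd4 over mt-Rnr1, and mt-Nd2 over mt-Nd5. The other 9 pairs overlapped in at least 1 library.

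**Figure D1:**
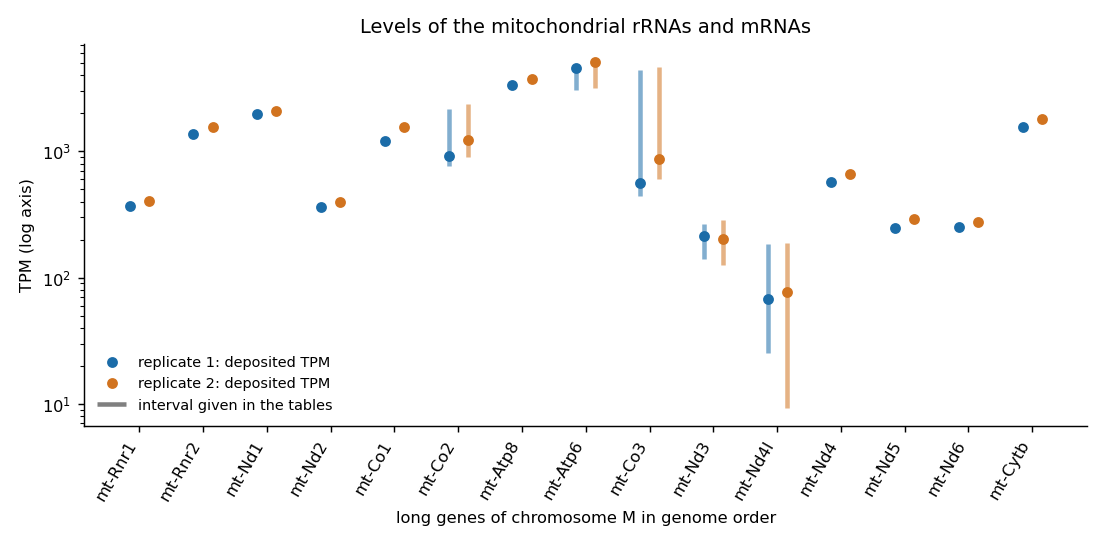
Deposited TPM (log axis) of the 2 rRNAs and 13 mRNAs in genome order; points are replicate 1 and replicate 2, and bars are the intervals the tables give, which belong to the posterior mean TPM, so a point can sit just outside its bar. mt-Atp6 is highest and mt-Nd4l lowest, and the bars are long for mt-Co2, mt-Co3, mt-Nd3 and mt-Nd4l, with a shorter one for mt-Atp6.

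The width of these intervals separated the genes sharply. Over the 12256 Ensembl genes that averaged at least 100 counts, the median ratio of the upper to the lower bound was 1.16 and 1.14. The ratio was 9.99 and 7.74 for mt-Co3, 7.30 and 20.4 for mt-Nd4l, 2.85 and 2.65 for mt-Co2, 1.89 and 2.30 for mt-Nd3 and 1.496 and 1.62 for mt-Atp6. For the other 10 long mitochondrial genes it was at most 1.08 in either library. The posterior SD of the count was 71.1% and 64.7% of its mean for mt-Co3, against 0.217% and 0.194% for mt-Co1.

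The genes with wide intervals have near-identical copies in the nuclear genome. Stretches of mitochondrial DNA inserted in nuclear chromosomes are called nuclear mitochondrial segments and are annotated as pseudogenes. A search of the annotated transcripts found 20 nuclear copies, and 10 of them share at least 1 identical 100 nt window with a mitochondrial gene. Of those 10, 7 form a single block on the minus strand of chromosome 1 (mm10 chr1:24611535-24616197, 4663 nt). The other 10 copies share no window, and their highest mean count was 0.5.

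Within the block, Gm28437 copies mt-Co3, Gm28661 copies mt-Co2, Gm10925 copies mt-Atp6 and Gm10222 copies mt-Nd4l, each with 100% identity over the whole copy. Gm28438 copies mt-Nd3 at 99.71% identity and Gm29216 copies the 3′ part of mt-Co1 at 99.793%. Gm28439 copies 876 nt of mt-Nd4 at 100% identity. It held 3.49 and 3.57 counts and is named because it completes the block, after its value was seen. For mt-Co3, 684 of its 685 windows also occur in the copy, which leaves 1 window of its own. mt-Co2, mt-Atp6 and mt-Nd4l have 3 windows of their own each, mt-Nd3 has 6, mt-Nd4 has 502, mt-Co1 has 1000 and mt-Nd2 has 909. The share of windows that also occur elsewhere was 99.9% for mt-Co3, 99.5% for mt-Co2 and for mt-Atp6, 98.5% for mt-Nd4l and 97.6% for mt-Nd3. It was 60.8% for mt-Nd4, 30.8% for mt-Co1 and 3.19% for mt-Nd2, and the remaining 5 mRNAs and both rRNAs shared none.

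What sets the exact copies apart is their annotated end. The last 30 bases of gene and copy are shown, with the bases that the annotated copy lacks in capitals (chrM:9361-9390 with chr1:24613189-24613218, chrM:7667-7696 with chr1:24614885-24614914, chrM:8578-8607 with chr1:24613974-24614003, chrM:10144-10173 with chr1:24612407-24612436; genes on the plus strand, copies on the minus strand):

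mt-Co3: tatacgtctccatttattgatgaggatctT

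Gm28437: ctatacgtctccatttattgatgaggatct

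mt-Co2: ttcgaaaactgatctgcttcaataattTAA

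Gm28661: tatttcgaaaactgatctgcttcaataatt

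mt-Atp6: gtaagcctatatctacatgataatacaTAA

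Gm10925: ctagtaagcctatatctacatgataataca

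mt-Nd4l: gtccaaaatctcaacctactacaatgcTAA

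Gm10222: tacgtccaaaatctcaacctactacaatgc

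The copies were annotated without the final stop codon, or without the lone T in the case of mt-Co3. The annotated transcripts of these 4 pairs thus differ in length by 1 or 3 nt and in no other base.

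Gm28438 and Gm29216 each differ from their mitochondrial gene at 1 base within the aligned part. Positions are counted from 1 at the gene's 5′ end, with the mitochondrial base named before the position and the copy's base after it. The differences are T3C in mt-Nd3 (chrM position 9461) and A1066T in mt-Co1 (chrM position 6393). Of the 492 nt of Gm29216, 483 aligned, so its printed stretch begins with bases outside the aligned part. Several of those also differ from mt-Co1 and are left in lower case. The differing base of the aligned part is in capitals below (mt-Nd3 at chrM:9459-9481, Gm28438 at chr1:24613097-24613119, mt-Co1 at chrM:6373-6413 and Gm29216 at chr1:24616165-24616197):

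mt-Nd3: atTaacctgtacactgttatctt

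Gm28438: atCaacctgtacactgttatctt

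mt-Co1: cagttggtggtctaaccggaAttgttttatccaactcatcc

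Gm29216: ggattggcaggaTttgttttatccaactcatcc

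The difference in mt-Nd3 lies in its start codon, and the marked one in Gm29216 is at base 13 of that copy's annotated sequence. Gm28438 has 3 windows that mt-Nd3 lacks and Gm29216 has 13 that mt-Co1 lacks, whereas the 5 copies with 100% identity have none. The bases printed are those of the reference assembly, and the bases carried by the B6NCrl pools at these positions were not analysed here.

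The copies received many of the counts. mt-Co3 had 10176 and 16642 counts and Gm28437 had 85240 and 101745, so the copy held 89.3% and 85.9% of the sum. mt-Nd4l had 356 and 424 counts against 1448 and 1646 for Gm10222, which held 80.3% and 79.5%. mt-Nd3 had 1432 and 1410 counts against 4156 and 4865 for Gm28438, which held 74.4% and 77.5%.

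In these 3 pairs most counts lay on the nuclear copy in both libraries. For mt-Co2 the counts were 14238 and 19858, against 25417 and 25550 for Gm28661. With the few counts of Gm13341 on chromosome 2, copies held 64.1% and 56.3% of the sum. mt-Co1 had 46906 and 62663 counts against 17189 and 21149 for Gm29216, and copies, with Gm13340 on chromosome 2, held 26.8% and 25.2%. mt-Atp6 had 70967 and 83029 counts against 2946 and 5598 for Gm10925, a copy share of 3.99% and 6.32%.

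Among the exact copies that lack only the end of their gene, the share thus ranged from 3.99% for mt-Atp6 to 89.3% for mt-Co3 in replicate 1. Both of these genes have at most 3 windows of their own. For mt-Nd4, with 502 windows of its own, the copy held 0.0179% and 0.0152%. The 7 copies of the block together took 0.350% and 0.378% of gene counts. With all copies added, chromosome M genes went from 0.893% and 0.997% of gene counts to 1.24% and 1.37%.

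**Figure D2:**
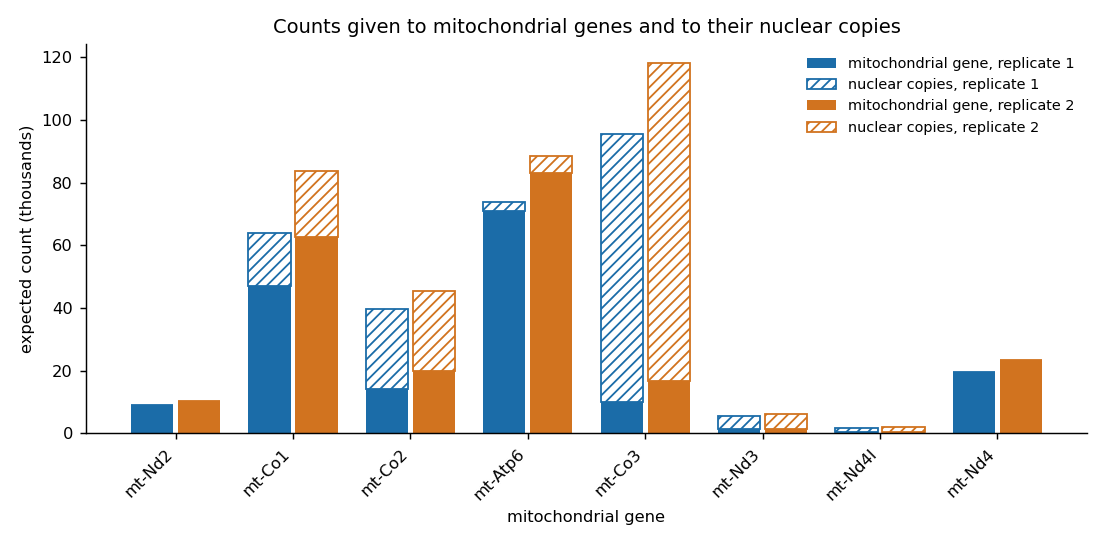
Expected counts (bar height) for the 8 mRNAs that share windows with nuclear copies; solid bars are the mitochondrial gene, hatched bars stacked on top are its copies, and each gene has a bar for replicate 1 and for replicate 2. For mt-Co3 the hatched part is 89.3% and 85.9% of the bar, while for mt-Atp6 it is 3.99% and 6.32%.

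**Figure D3:**
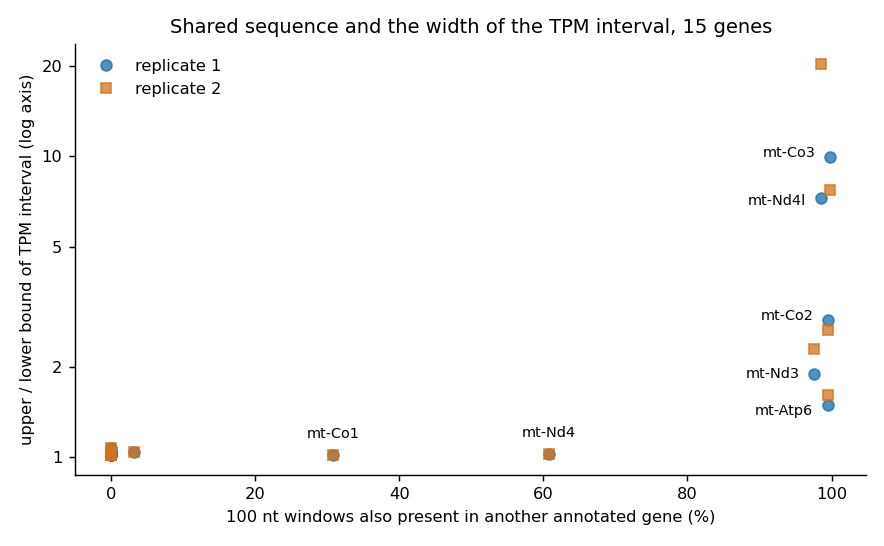
Share of 100 nt windows that also occur in another annotated gene (x, in percent) against the ratio of the upper to the lower bound of the TPM interval (y, log axis), for the 15 long genes in replicate 1 and replicate 2. The 5 genes above 97% have ratios from 1.496 to 20.4, and the 10 others, mt-Nd4 at 60.8% included, stay at or below 1.08.

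Levels were also computed with the counts of gene and copies pooled and scored at the length of the mitochondrial gene. This processing was chosen after seeing the data. It treats every count on a copy as if it came from chromosome M, which the tables do not show. mt-Co3 was then at 5225 and 6222 TPM, 9.38-fold and 7.11-fold its listed level, and moved from rank 8 of 15 to the top of the order. mt-Co2 reached 2544 and 2795 TPM, mt-Co1 1663 and 2087, and mt-Atp6 4764 and 5482. mt-Nd3 reached 842 and 907 TPM and mt-Nd4l 342 and 376. The median of the 13 mRNAs became 1549 and 1820 TPM. mt-Co3 was now the highest of the 3 complex IV mRNAs in both libraries, where it had been the lowest.

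The bicistronic pairs responded differently to the pooling. For mt-Nd4 over mt-Nd4l, which overlap by 7 nt, the ratio was 8.49-fold and 8.59-fold from the listed values and 1.67-fold and 1.76-fold with copies pooled. For mt-Atp6 over mt-Atp8, which overlap by 43 nt, it was 1.37-fold and 1.36-fold as listed and 1.43-fold and 1.45-fold with copies pooled. The posterior mean TPM of the same tables took middle values for the most affected gene: mt-Co3 was at 1894 and 2233 TPM, and Gm28437 at 3225 and 3867.

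The libraries were next compared with each other. Since a library stands for 1 pool, differences between pools, libraries and batches cannot be told apart. With 2 libraries the smallest p of a two-sided exact sign-flip test is 0.5. In place of a test, the log2 difference (replicate 2 minus replicate 1) of counts after TMM scaling, a between-library normalisation, is given with an exact binomial 95% interval for counting error. A gene was called higher or lower where that interval excluded 0. Among the same 12256 genes, 63.1% were called, 30.4% higher and 32.7% lower, so a call by itself is common. The central 95% of all log2 differences ran from -0.49 to 0.77, and from -0.43 to 0.46 over the 7408 genes that averaged at least 1000 counts.

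Of the 13 mRNAs, 7 were called higher in replicate 2, 2 lower and 4 neither. Their median difference was 0.05, against -0.00 over all genes tested and -0.04 over those that averaged at least 1000 counts. No member reached a 2-fold difference, which 1.65% of all genes tested did. mt-Co3 had the largest value, 0.51 (0.48 to 0.55), followed by mt-Co2 at 0.28 (0.25 to 0.31) and mt-Co1 at 0.22 (0.20 to 0.24). All 3 complex IV mRNAs were therefore called higher, and all 3 lay inside the central range of all genes tested. mt-Co3 lay above the narrower range of genes with at least 1000 counts, and mt-Co2 and mt-Co1 lay inside it. With the copies pooled, the value was 0.11 (0.10 to 0.13) for mt-Co3, -0.00 (-0.02 to 0.02) for mt-Co2 and 0.19 (0.17 to 0.20) for mt-Co1. The mt-Co2 call was lost, and the mt-Co3 value fell below that of mt-Co1.

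The other calls were small. mt-Nd5 (0.10), mt-Cytb (0.09), mt-Nd4 (0.07) and mt-Atp6 (0.03) were called higher. With its copy pooled mt-Atp6 was at 0.06 (0.05 to 0.08), and its TPM intervals overlapped between the libraries. mt-Nd3 was called lower at -0.22 (-0.33 to -0.11), and with its copy pooled it was at -0.03 (-0.08 to 0.02), which is no call. With spike-in scaling and no pooling it was at 0.03. mt-Nd1 was called lower at -0.06 (-0.08 to -0.05), but was 0.19 with scaling to the spike-in RNAs and 0.07 from deposited TPM. mt-Atp8, mt-Nd4l, mt-Nd2 and mt-Nd6 were not called, with values of 0.04, 0.05, -0.02 and -0.00.

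Of the rRNAs, mt-Rnr2 was called higher at 0.06 (0.05 to 0.08) and mt-Rnr1, at -0.01 (-0.05 to 0.03), was not. Spike-in scaling moved the median of all genes tested by 0.25 on the log2 scale and the deposited TPM setting moved it by 0.14. That setting scaled the counts of all genes by the ratio of count to TPM of mt-Nd1 in each library. For a gene with several transcripts it need not equal the ratio of that gene's own TPM. Relative to the median of all genes tested, the mRNA median was 0.06 higher under each of these count scalings, and 0.02 higher with posterior mean TPM. Under spike-in scaling 12 of the 13 mRNAs were called higher and 0 lower, where 72.3% of all genes tested were called higher and 6.54% lower. With the deposited TPM setting, 11 were called higher and 0 lower, where 53.8% of all genes tested were called higher and 14.7% lower. By the intervals the tables give for TPM, 8 of the 13 mRNAs were apart and higher in replicate 2 and 0 were lower, against 35.9% and 9.32% of all genes tested. mt-Co1 was the complex IV mRNA among those 8, while the intervals of mt-Co2 and mt-Co3 overlapped between the libraries.

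**Figure D4:**
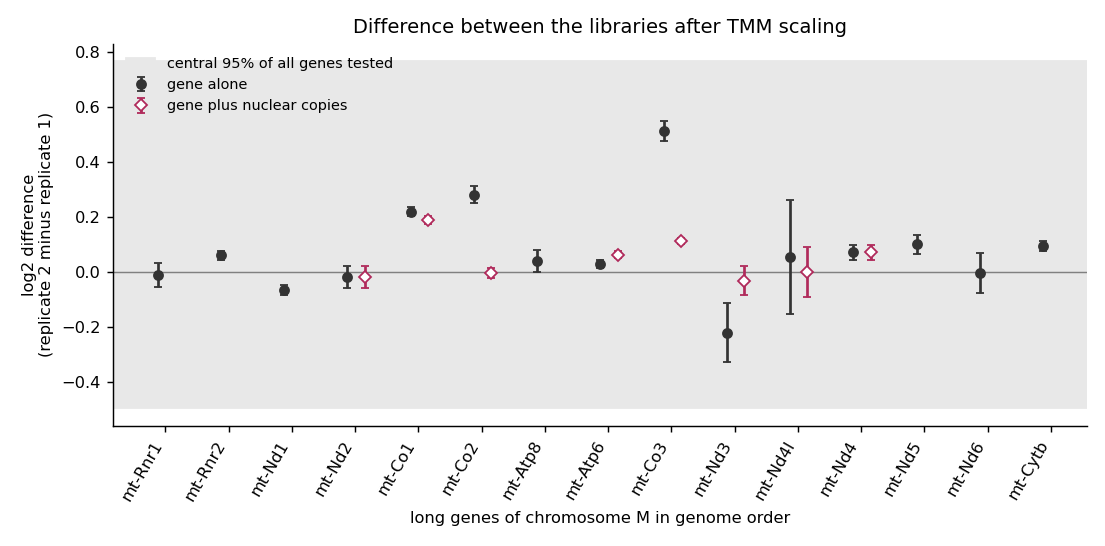
Log2 difference between the libraries (replicate 2 minus replicate 1, TMM scaling) for the 15 long genes in genome order; filled points are the gene alone, open diamonds the gene with its nuclear copies pooled, and error bars are exact binomial 95% intervals for counting error. All points lie in the grey band that holds the central 95% of all genes tested, and mt-Co3, which lies above the upper limit of 0.46 for genes with at least 1000 counts, moves from 0.51 to 0.11 when copies are pooled.

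The subunits that share a complex with these products come from nuclear genes, and the lists are textbook ones. All 75 nuclear subunits of complexes I to V were at 1 TPM or more in both libraries, with a median of 333 and 346 TPM. Complex I had 36 nuclear subunits with a median of 254 and 250 TPM, led by Ndufab1, the mitochondrial acyl carrier protein, at 701 and 672, with Ndufb4 lowest at 32.6 and 36.7. The median of its 7 mitochondrial mRNAs was 252 and 292 TPM, so the log2 ratio of mitochondrial to nuclear was -0.01 and 0.23. With copies pooled it was 0.52 and 0.67.

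Complex III had 9 nuclear subunits with a median of 439 and 412 TPM, led by Uqcr10 at 600 and 564. Against these, mt-Cytb was 3.53-fold and 4.42-fold higher, and its value does not depend on copies. Complex IV had 11 nuclear subunits with a median of 621 and 603 TPM, led by Cox6b1 at 845 and 812. The median of the mitochondrial mRNAs, that of mt-Co2, was 1.47-fold and 2.03-fold higher as listed and 4.10-fold and 4.63-fold higher with copies pooled. Complex V had 15 nuclear subunits with a median of 471 and 467 TPM, led by Atp5b, the catalytic beta subunit, at 2137 and 1972. Its mitochondrial mRNAs were 8.39-fold and 9.55-fold above that median, and both exceeded Atp5b.

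As listed, the ratio of mitochondrial to nuclear subunit mRNA therefore differed between complexes, from near equality in complex I to the highest values in complex V, in both libraries. With copies pooled, complex I was still lowest, at 1.44-fold and 1.59-fold, and complex V highest. Complex IV then lay above complex III, where it had been below. All 4 subunits of complex II, which has none from mitochondrial DNA, were measured, with a median of 249 and 246 TPM. The heart and skeletal muscle isoforms of complex IV were low: Cox7a1 was at 1.27 and 1.63 TPM, Cox6a2 at 0.20 and 0.45 and Cox8b at 0 and 0.41.

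**Figure D5:**
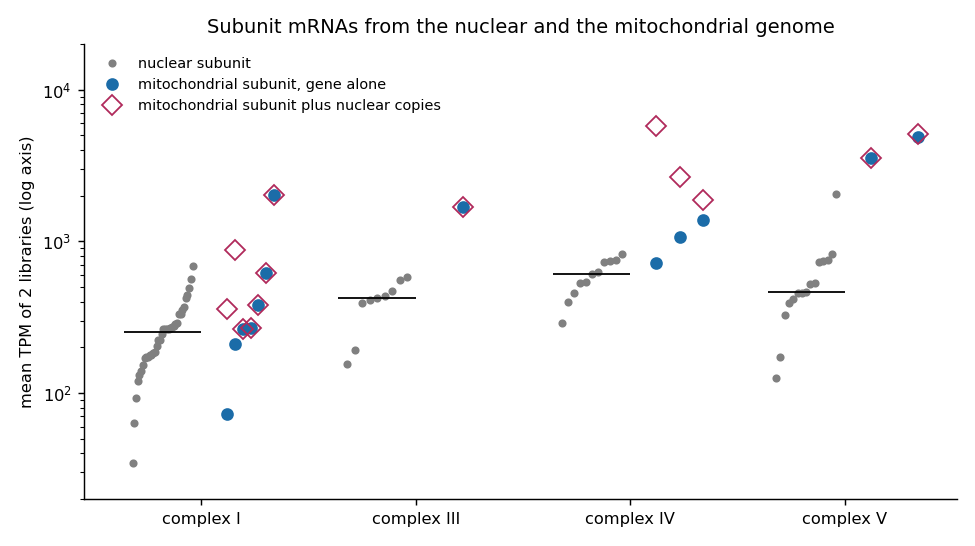
Mean TPM of the 2 libraries (log axis) for subunit mRNAs of complexes I, III, IV and V; grey dots are nuclear subunits with their median as a black line, blue circles the mitochondrial mRNAs and open diamonds the same with nuclear copies pooled. Both complex V mRNAs lie above all nuclear subunits of that complex, and in complex I the circles spread across the nuclear range.

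Between the libraries, 67 of the 75 nuclear subunits were called lower in replicate 2 and 0 higher, with a median of -0.17, but with spike-in scaling 50 were called higher and 2 lower. Over all genes tested, 32.7% were called lower and 30.4% higher with TMM, and 6.54% lower and 72.3% higher with spike-in scaling. All counts of calls in the lists below are to be read against these shares. Relative to the median of all genes tested, the nuclear subunits were at -0.16 and the mitochondrial mRNAs at 0.06, and these offsets are the same under both scalings by construction. All 11 nuclear complex IV subunits were called lower, from -0.28 for Cox7a2 to -0.09 for Cox6c, while the 3 mitochondrial ones were called higher. With spike-in scaling 6 of the 11 were called higher and 0 lower. Of the 3 mitochondrial ones, 2 were called higher with copies pooled and 1 by the tables' TPM intervals. With TMM, the erythroid and ectoderm markers named above were lower in the same library, and 5 of the 8 mesenchyme markers were higher and 3 lower. With spike-in scaling, 4 erythroid and 3 ectoderm markers were lower and 0 higher, and 7 mesenchyme markers were higher and 0 lower. A link between the markers and these calls was not tested.

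Genes that act on mitochondrial nucleic acids had list medians far below that of the mitochondrial mRNAs: 27.1 and 24.6 TPM for transcription, 39.2 and 34.9 for RNA processing, 32.8 and 36.2 for RNA stability and 28.4 and 29.3 for DNA replication. Of 10 genes of mitochondrial transcription, the DNA packaging and initiation factor Tfam led at 74.4 and 75.8 TPM, and the RNA polymerase Polrmt was at 51.6 and 49.8. Of the 9 with enough counts, 1 was called higher and 3 lower, with spike-in scaling 6 higher and 0 lower, shares of lower calls with TMM and of higher calls with spike-in scaling that are near those of all genes. Polrmt, at -0.04 (-0.12 to 0.03), was not called. Of 11 genes of RNA processing, Hsd17b10, a subunit of the enzyme that cuts the 5′ ends of tRNAs, led at 214 and 216 TPM. Elac2, which cuts their 3′ ends, was at 39.2 and 34.9 TPM. In this list 9 were called lower and 0 higher, with spike-in scaling 1 lower and 6 higher.

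Of 8 genes of RNA stability and turnover, Slirp was at 279 and 275 TPM and Lrpprc, with which it forms a complex that protects mitochondrial mRNAs, at 50.3 and 51.4. Here 1 was called higher and 4 lower, and with spike-in scaling all 8 were called higher. Of 7 genes of DNA replication, the single-strand binding protein Ssbp1 led at 180 and 174 TPM, the polymerase Polg was at 29.9 and 29.3 and the helicase Twnk at 34.4 and 30.1. In that list 3 were called lower and 0 higher, with spike-in scaling 1 lower and 5 higher.

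The ribosome that reads the mitochondrial mRNAs pairs the 2 rRNAs with proteins from nuclear genes. All 77 genes with an Mrpl or Mrps symbol were measured, with a median of 99.6 and 91.0 TPM, from Mrpl1 at 21.95 and 19.9 to Mrps21 at 322 and 309. In replicate 2, 71 were called lower and 0 higher, with a median of -0.24, and with spike-in scaling 11 were called lower and 15 higher. Mrpl23 had the lowest value at -0.71 (-0.85 to -0.57). By the tables' own TPM intervals, 30 of the 77 were apart and lower and 1 was higher, while both mt-Rnr1 and mt-Rnr2 were apart and higher. Over all genes tested, 9.32% were apart and lower and 35.9% apart and higher by these intervals. With TMM scaling mt-Rnr1, at -0.01, was not called.

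Of the 17 mitochondrial aminoacyl-tRNA synthetases, which charge the tRNAs, 10 were called lower and 0 higher, with spike-in scaling 8 higher and 0 lower. Lars2, for leucine, was the highest of the list at 605 and 636 TPM, and Mars2, for methionine, the lowest at 2.32 and 2.13.

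Among 6 regulators of mitochondrial biogenesis, Nrf1 was at 83.1 and 82.9 TPM and Ppargc1a, a coactivator abundant in oxidative tissues, at 2.05 and 5.16. Ppargc1a was called higher in replicate 2 at 1.18 (0.94 to 1.42), its related coactivator Ppargc1b was at 1.62 and 1.59 TPM with no call, and Pprc1 was called lower at -0.43 (-0.48 to -0.37). The list held 2 calls in each direction, with spike-in scaling 3 higher and 1 lower.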

How the data were processed

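The authors deposited a gene and a transcript table for each library, with expected counts, TPM, percent of a gene's TPM per transcript, and posterior means with bounds of an unstated level. Per the sample text files, the values come from transcriptome alignments to mm10 with the GENCODE M4 annotation. Neither labels nor headers used here name the aligner, quantifier or strand setting. Expected counts were rounded for scaling with TMM in edgeR 4.0.16 (R 4.3.3), with DESeq2 1.42.0 size factors as an alternative. Names, positions and sequences came from GENCODE M21 by identifier without version, which named 42462 of 43346 genes; unnamed genes were not searched for copies. Nuclear copies were found by BLAST 2.17.0 of chromosome M transcripts (word size 16, identity of 80% or more, aligned length of 100 nt or more) and compared in 100 nt windows on both strands. Of the 10 copies that share a window, all 10 have the same length in the tables.

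Intervals of log2 differences and of shares are exact binomial at 95%. The log2 interval was tested on data simulated with counting error as the only noise, which is its own assumption. That simulation cannot show how the interval behaves with differences between pools. Other steps used Python 3.11.15, scipy 1.17.1 and matplotlib 3.10.9. Named were all 37 members, nuclear copies with a mean count of 10 or more, and of each list up to 4 highest and the lowest member and up to 2 with the largest and smallest log2 difference. Members and lists were chosen with earlier results of these data known. Reads carry no molecular identifiers in these tables, so intervals cover counting error only. Alternatives were other scalings, count filters, TPM columns and lengths, copies added, and leaving out each replicate.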

Additional observations from a re-analysis of the deposited data

How the results depend on the processing

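No paired analysis was possible because the series has a single group of 2 libraries. The median TPM of the 13 mRNAs (723 as the mean of both libraries) was 1317 with posterior mean TPM and 1685 with copies added by TPM or by counts. Adding copies by TPM and by counts gave log2 ratios of -2.81 and -2.75 for mt-Nd6 to the plus strand median (-1.74 as listed, -2.41 with posterior mean TPM). The same 2 settings gave 0.53 and 0.53 for mt-Atp6 to mt-Atp8 (0.45 as listed), and 0.76 and 0.78 for mt-Nd4 to mt-Nd4l (3.09 as listed). For mitochondrial to nuclear subunits they gave 0.60 and 0.60 in complex I (0.11 as listed), and 2.37 and 2.12 in complex IV (0.79 as listed, 1.26 with posterior mean TPM). Posterior mean TPM gave 0.22 for mt-Atp6 to mt-Atp8 and 2.82 for mt-Nd4 to mt-Nd4l. Counts per full length gave 1.98 for mt-Rnr2 to mt-Rnr1, 1.18 for mt-Atp6 to mt-Atp8, 3.57 for mt-Nd4 to mt-Nd4l, 0.29 for complex I and 2.85 for complex V (3.16 as listed). The share of chromosome M was 1.31% with copies added (0.945% without).

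Of the 13 mRNAs, 12 were called higher with spike-in scaling and 11 with the deposited TPM setting (7 with TMM). Of all genes tested, 72.3% and 53.8% were called higher and 6.54% and 14.7% lower under these 2 settings. Called lower were 0 with spike-in scaling, 0 from deposited TPM, 0 with posterior mean TPM and 1 with copies added (2 with TMM). Their median difference (0.05) was 0.31, 0.19 and 0.15 with spike-in scaling, deposited TPM and posterior mean TPM, under which the median of all genes tested was 0.25, 0.14 and 0.13. Of 210 nuclear list genes tested, 4 were called higher with TMM, 2 with DESeq2 size factors, 101 with spike-in scaling, 31 with the deposited TPM setting, 16 with posterior mean TPM and 1 with the 99% interval. Called lower were 169 with TMM, 16 with spike-in scaling, 83 with the deposited TPM setting and 50 with posterior mean TPM. Among genes called with TMM, the sign turned for mt-Nd1 (0.19 with spike-in scaling, 0.0737 from deposited TPM and 0.0748 with posterior mean TPM). It also turned for mt-Nd3 (0.0334 with spike-in scaling and 0.0120 with posterior mean TPM) and for mt-Co2 (-0.00196 with copies added). The uncalled mt-Nd2, mt-Nd6 and mt-Rnr1 (-0.02, -0.00 and -0.01) turned to 0.24, 0.25 and 0.24 with spike-in scaling. They were at 0.12, 0.14 and 0.13 both from deposited TPM and with posterior mean TPM. Spike-in scaling and the deposited TPM setting each move every gene by the same amount by construction. The latter scales all counts by the ratio of count to TPM of mt-Nd1, and does not use each gene's own TPM. The cause of the other changes was not tested. With 2 libraries, leaving out a replicate returns the value of the other one and says nothing about stability, and no difference between libraries can be had from 1 library.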
